A study of Mus musculus with 72 samples.

Results

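The response of mouse blood to 1 Gy of x-rays was followed over 3 days of sampling, with the irradiated mice of days 1, 3 and 7 each set against the control mice of the same day. The arrays were chosen by their titles, and 32 of the 72 arrays of the series belong here. At day 1 there were 5 control and 6 irradiated mice, at day 3 there were 5 and 5, and at day 7 there were 6 and 5. Each array held the RNA of 1 mouse. All were young adult male C57BL/6 mice that were either exposed to a single whole-body dose of 1 Gy x-rays or sham-irradiated, and blood was drawn by cardiac puncture into an RNA stabilising solution when the animals were killed. The sham mice were placed in holders on the wheel of a neutron source with the beam off, whereas x-rays came from a separate machine. The authors describe mice of days 1 and 7 only, so these details are taken to hold for day 3. Globin transcripts, which otherwise dominate whole blood RNA, were reduced before labelling. No mouse was sampled more than once, so a change between days is a difference between separate groups of animals, and the controls of each day are different mice.

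Ionising radiation breaks DNA, and the transcription factor p53 then switches on genes that halt the cell cycle, repair damage or start cell death. B lymphocytes are among the most radiosensitive cells of the blood, whereas mature granulocytes and platelets do not divide. Red cells are made in the bone marrow and released as reticulocytes, young red cells that have lost the nucleus but still carry messenger RNA for membrane skeleton proteins, heme synthesis and the ubiquitin machinery that clears their organelles.

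Expression is given as the log2 intensity of the probe of a gene relative to the median detected probe of the same array, so that 0 stands for the median and 1 unit for a doubling of intensity. Between 52.8 and 64.6% of the spots of an array were well above background. Correlations between mice of a group ran from 0.787 to 0.973 at day 3 after irradiation and from 0.878 or higher to 0.987 or lower in the other groups. Blood cell genes were present on these arrays: all 14 of the mature neutrophil genes, all 24 T cell genes and all 20 B cell genes with a probe passed the detection filter. Transcripts of hepatocytes were present as well. Of 38 hepatocyte genes, 37 were on the array and 17 were detected, and the mean level of the 37 ran from -2.45 to 4.94 in the controls and from 0.77 to 5.66 in the irradiated mice of day 1, from -5.14 to 4.39 and from -1.37 to 4.00 at day 3, and from -5.27 to -3.65 and from -4.91 to 3.18 at day 7. With this level as a covariate the numbers of called genes given in the next paragraph were 568, 525 and 483. The controls of a day were all scanned on 1 date on which no irradiated mouse of that day was scanned, so scan date and irradiation cannot be told apart within a day. With date as a random block (the date block) the numbers were 400, 214 and 277. In the 6 control and 3 irradiated mice of day 7 with a hepatocyte level below 0, 412 genes were called at that day, and in the 3 control and 2 irradiated mice of day 3 with such a level none was.

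Relative to the median probe of each array, more of the called genes among the 7546 tested were lower than higher at day 1, and more were higher than lower at day 7. A gene was called when limma, fitted over the 32 arrays, gave a p below 0.001 and a false discovery rate below 5%. At day 1, 213 genes were higher (2.82%) and 417 lower (5.53%) than in the controls. At day 3, 305 were higher (4.04%) and 196 lower (2.6%), and at day 7, 378 were higher (5.01%) and 92 lower (1.22%). Complete separation of the groups, with all irradiated mice above all controls, was found for 362 genes at day 1 (4.8%), 531 at day 3 (7.04%) and 454 at day 7 (6.02%). All irradiated mice lay below all controls for 599 (7.94%), 241 (3.19%) and 122 genes (1.62%). The median log2 fold change over all genes tested was -0.03, 0.06 and 0.14. Genes entered the test only if their level departed at least 1.5-fold from its median on 20% or more of the arrays, which favours genes that vary, and the median over all 16305 detected genes was -0.01, -0.02 and -0.04.

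These directions depend on the scale and the fit. With the hepatocyte level as a covariate the day 1 split was 259 higher and 309 lower, and with a replicate block it was 402 and 372. Centred on the 75th percentile, the split was 145 higher and 565 lower at day 1, and 216 higher and 298 lower at day 3. Centring was also done on the 6 spike-in probes, which carry a fixed amount of added RNA. The median gene then shifted by 0.16, -0.70 and -0.82 at days 1, 3 and 7. On that scale 16304 genes passed the filters and were tested. Of these, 78 were higher and 116 lower at day 1, 3 higher and 1346 lower at day 3, and 3 higher and 2192 lower at day 7. A fold change against the median gene is therefore reported throughout. The day 3 calls also rested on the spread shared by all 6 groups, since a fit of the 2 groups of day 3 alone called 42 genes, of which 34 were higher. Leaving out 1 mouse moved the count for the effect of 1 Gy x-rays at day 3 to 272 without control mouse 5, to 302 without control mouse 3, to 319 without control mouse 2 and to 705 without control mouse 1. The day 1 count was 406 without control mouse 5 of that day, and the day 7 count was 311 without irradiated mouse 2.

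**Figure D1:**
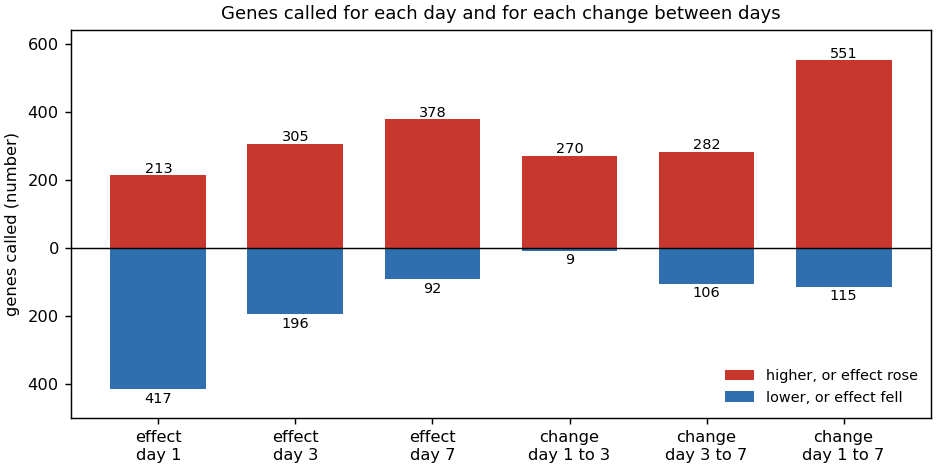
Number of genes called higher (red) or lower (blue) in each comparison, out of 7546 tested. The left bars are the effects of 1 Gy x-rays at days 1, 3 and 7 against the controls of the same day, and the right bars are changes of the effect between days. Lower calls fall from 417 to 196 to 92 and higher calls go from 213 to 305 to 378, and the changes between days are mostly upward, all on the scale of the array median.

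Whether the effect itself changed was tested as the difference of 2 day effects. From day 1 to day 3 it rose for 270 genes (3.58%) and fell for 9 (0.119%). From day 3 to day 7 it rose for 282 (3.74%) and fell for 106 (1.4%), and from day 1 to day 7 it rose for 551 (7.3%) and fell for 115 (1.52%). An F test over the 3 days called 718 genes (9.51%). In the spike-in scale, with 16304 genes tested, most genes shift downward at days 3 and 7. The changes there were 14 up and 16 down, 60 up and 12 down, and 72 up and 1020 down.

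Most genes that were lower at day 1 were not called lower afterwards. They were chosen on the day 1 values, which also enter each change from day 1, so the day 3 and day 7 effects are the values independent of the choice. The 417 genes had a median fold change of -1.26 at day 1. Of these, 75 (18%) were still called lower at day 3 and 26 (6.24%) at day 7. The shares over all genes tested were 2.6% and 1.22%. Called higher were 24 (5.76%) at day 3, near the 4.04% of all genes, and 102 (24.5%) at day 7, against 5.01%. The median of the 417 genes was -0.08 at day 3 and 0.65 at day 7. The rise of the effect itself was called for 177 of them by day 3 and for 237 by day 7. A path from lower at day 1 through no call at day 3 to higher at day 7 was followed by 81 genes, and 21 were already higher at day 3. Lower expression on all 3 days was called for 7 genes, and higher expression on all 3 days for 2.

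Most genes that were higher at day 1 stayed above 0 at day 3 and not at day 7. The 213 genes had a median of 1.26 at day 1, 0.72 at day 3 and -0.09 at day 7, and 196 of them (92%) still lay above 0 at day 3, where 53.4% of all genes tested did. At day 3, 49 (23%) were called higher, and at day 7, 3 (1.41%), against 4.04% and 5.01% of all genes tested. The effect had fallen by a called amount for 7 of them at day 3 and for 83 at day 7. Across all 7546 genes, which are not independent replicates, the day 1 and day 3 effects had a Pearson correlation of 0.475, the day 1 and day 7 effects one of -0.093 and the day 3 and day 7 effects one of -0.042. The 196 genes lower at day 3 had a median of -0.99 at day 1, and 192 of them (98%) were below 0 there. Of all genes tested, 48.8% were above 0 at day 1. Beside these, 198 genes were called higher at day 3 and not on the other days, and 237 were called higher at day 7 alone.

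**Figure D2:**
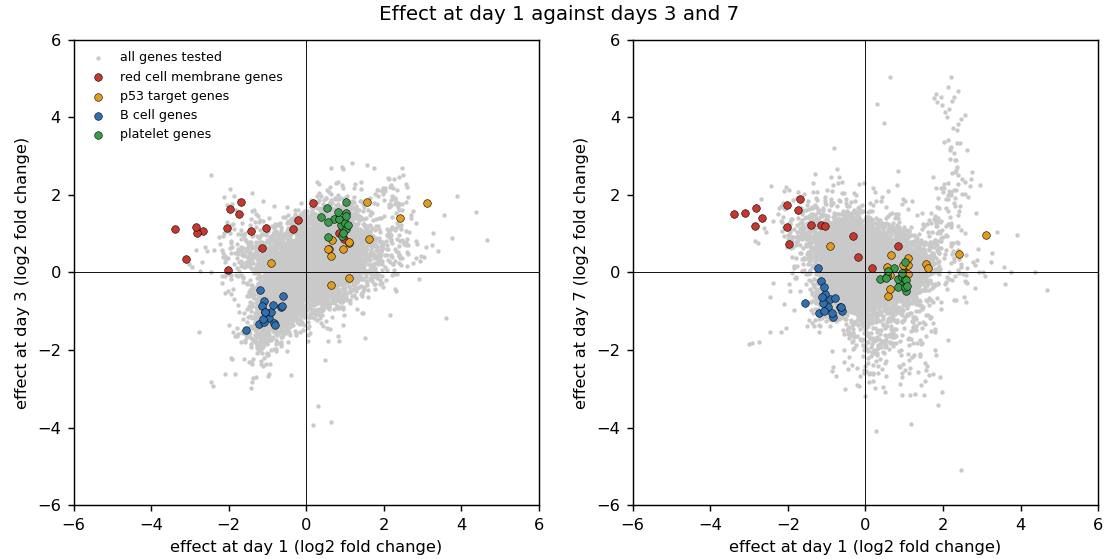
Effect of 1 Gy x-rays on each of 7546 genes (log2 fold change against the controls of the same day), day 1 against day 3 on the left and day 1 against day 7 on the right, with 4 gene lists in colour. Most red cell membrane genes lie at negative values on day 1 and at positive values on days 3 and 7, and B cell genes have medians below 0 on all 3 days.

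Genes of the red cell membrane and its skeleton went from lower to higher expression against the median probe. All 18 genes of this list were tested. At day 1, 11 were lower and 1 was higher, at day 3, 5 were higher, and at day 7, 10 were higher, with list medians of -1.71, 1.13 and 1.22. The effect rose for 14 of the 18 from day 1 to day 3 and for 14 from day 1 to day 7, and for none from day 3 to day 7, where the list median was 0.10. A random block for scan date left 9 lower, 3 higher and 6 higher, and 13 rose over each of the first 2 spans. Leaving out 1 mouse at a time gave 9 to 13 lower at day 1. It gave 3 to 8 higher at day 3, with 3 without control mice 3 or 5 or irradiated mice 2 or 5 and 8 without irradiated mouse 1. It gave 5 to 11 higher at day 7, with 6 without control mice 2 or 6 and 5 without irradiated mice 2 or 4. In the spike-in scale 8 were lower at day 1, none was called higher at day 3 or 7 and 1 was lower at day 3, while the effect rose for 4 from day 1 to day 3 and for 8 from day 1 to day 7. In bulk blood, fewer cells of a type and less RNA per cell cannot be told apart.

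Ank1 encodes ankyrin, which ties the membrane skeleton to the band 3 protein, and its probe (A_55_P2063785) gave the largest fall of the list. At day 1 it stood at -0.15, -0.14, -0.26, 1.34 and 1.04 in the controls and between -4.30 and -2.01 (median -3.05) in the 6 irradiated mice. At day 3 the controls were at -0.70, -0.12, -0.68, -0.01 and 0.15 and the irradiated mice at 1.12, 0.28, 0.98, 0.05 and 1.84. At day 7 the 6 controls ran from -0.24 to 1.00 (median 0.60), and the irradiated mice were at 1.77, 2.55, 1.52, 2.51 and 1.64. All irradiated mice were below all controls at day 1 and above all controls at day 7, and at day 3 the groups overlapped. The fold change was -3.38 ± 0.38 (SE) at day 1 (adjusted p = 9.64e-07) and 1.51 ± 0.38 at day 7 (adjusted p = 0.00882), against 1.13 ± 0.39 at day 3, which was not called. The effect rose by 4.51 ± 0.54 from day 1 to day 3 (adjusted p = 5.6e-06). In the mice of day 7 with a hepatocyte level below 0 the Ank1 effect was 1.79. The day 7 call was lost under the date block (adjusted p = 0.031).

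Slc4a1, the band 3 anion exchanger to which ankyrin binds (probe A_51_P196972), followed the same course. At day 1 the controls were at 5.43, 6.31, 5.72, 7.13 and 6.78, and the irradiated mice ran from 2.44 to 4.57 (median 3.47). At day 7 the controls ran from 5.74 to 6.79 (median 6.62), and the irradiated mice were at 7.95, 8.77, 7.37, 8.40 and 7.92. The groups did not overlap on either day, and the control means of 6.28 ± 0.71 (SD, n = 5) and 6.43 ± 0.43 (SD, n = 6) differed by less than their SD. The fold change went from -2.83 ± 0.38 to 1.65 ± 0.38, a rise of 4.48 ± 0.54 (adjusted p = 9.35e-07). At day 3 it was 1.02 ± 0.40 and was not called. Epb42 (protein 4.2) fell by 2.66 at day 1 and Epb41 (protein 4.1) by 2.03. At day 7 Epb41 was called higher, with 1.17, though not under the date block, and Epb42, at 1.41, was not called.

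Blood group genes were the members that were already higher at day 3. Rhd encodes a carrier of the Rh antigens (probe A_51_P241769). At day 3 the controls were at 1.09, 1.69, 1.31, 1.74 and 0.93 and the irradiated mice at 2.62, 2.81, 3.62, 3.18 and 3.62, with no overlap. Rhd was lower at day 1 (-1.68 ± 0.33, adjusted p = 0.00107), higher at day 3 (1.82 ± 0.35, adjusted p = 0.00211) and higher at day 7 (1.90 ± 0.33, adjusted p = 0.000464). Ermap, which carries the Scianna antigens, and Icam4, which carries the Landsteiner-Wiener antigens, were higher at both later days, by 1.07 and 1.14 at day 3 and by 1.23 and 1.21 at day 7. Xk, the partner of the Kell protein, was higher by 1.13 and 0.94. Ermap (adjusted p = 0.0411) and Icam4 (adjusted p = 0.0394) lost the day 3 call under the date block. Sptb (beta spectrin) was at 0.17 at day 1, was higher by 1.79 at day 3, where it was well above background on 2 of 5 control arrays, and was at 0.13 at day 7. Gypc (glycophorin C) was the member that was higher at day 1, by 0.98, and its later values of 0.88 and 0.01 were not called.

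The 18 genes of the list were searched in the 250 bases before their start sites (RefSeq, GRCm38.p6) for GATAAG, the core of the sites bound by GATA factors, on both strands. Of the 18 genes, 12 had an entry, and members without one include Ank1, Dmtn, Gypc and Slc4a1. The letters were found in 5 of the 12 (41.7%), against 2054 of 27025 genes with an entry (7.6%). Among all genes that were lower at day 1 they were found in 17 of 221 (7.69%), and among genes whose effect rose from day 1 to day 7 in 33 of 349 (9.46%). For the other motifs searched, CACCC was found in 10 of 12 (83.3%, against 54.5% of all) and CCAAT in 4 of 12 (33.3%, against 37.5%). Among the genes tested that had an entry, the shares were 7.6% for GATAAG, 63.7% for CACCC and 40.4% for CCAAT. A match describes the letters only. The 120 bases directly before the start are shown for the 4 genes that hold the match in that stretch, with GATAAG, or its reverse complement CTTATC, in capitals.
Rhd, chr4:134864416-134864535, plus strand: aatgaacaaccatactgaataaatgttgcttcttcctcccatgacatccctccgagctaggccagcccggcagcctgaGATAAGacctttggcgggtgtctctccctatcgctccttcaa
Kel, chr6:41704326-41704445, minus strand: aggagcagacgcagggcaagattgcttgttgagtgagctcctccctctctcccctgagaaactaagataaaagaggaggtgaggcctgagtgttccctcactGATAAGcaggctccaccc
Rhag, chr17:40811029-40811148, plus strand: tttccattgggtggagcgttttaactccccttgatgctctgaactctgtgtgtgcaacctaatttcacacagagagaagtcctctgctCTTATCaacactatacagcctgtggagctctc
Icam4, chr9:21029312-21029431, plus strand: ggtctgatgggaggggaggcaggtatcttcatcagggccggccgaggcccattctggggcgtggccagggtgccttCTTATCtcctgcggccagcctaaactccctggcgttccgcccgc
The match begins 42 bases before the start in Rhd, 18 in Kel, 32 in Rhag and 44 in Icam4. The fifth gene, Epb42, holds it 227 bases before the start. The effect on Kel, which carries the Kell antigens, rose from -2.03 ± 0.40 at day 1 to 1.74 ± 0.40 at day 7, and that on Rhag, the partner of the Rh proteins, from -1.15 ± 0.32, not called, to 1.22 ± 0.32, which was not called under the date block.

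**Figure D3:**
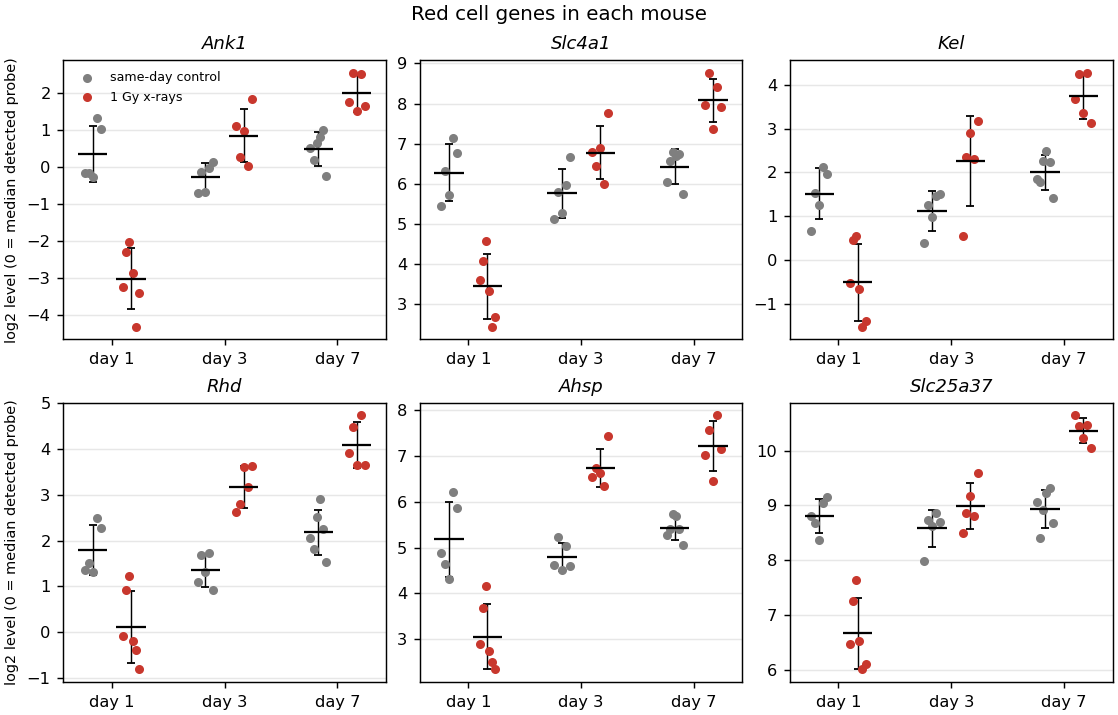
Log2 level relative to the array median for Ank1, Slc4a1, Kel, Rhd, Ahsp and Slc25a37 in each mouse, controls and irradiated mice side by side at days 1, 3 and 7, with the mean and SD of each group. Irradiated mice lie below the controls at day 1 in all 6 genes and above them at day 7 in all 6. At day 3 Rhd and Ahsp are separated upward, and Slc25a37 overlaps.

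Hemoglobin assembly, heme synthesis and iron supply did not move as one. Ahsp, the chaperone of free alpha globin, fell by 2.13 ± 0.33 at day 1 and was higher by 1.94 ± 0.35 at day 3 and by 1.79 ± 0.33 at day 7. Of 11 tested genes of heme and iron supply, 3 were lower at day 1, none was called at day 3 and 4 were higher at day 7, with medians of -0.61, 0.19 and 0.87. In the spike-in scale 2 were lower at day 1, 2 were lower at day 3 and none was higher at day 7. Slc25a37, the mitoferrin that carries iron into mitochondria, fell by 2.14 at day 1, was at 0.40 at day 3 and was higher by 1.43 at day 7. Fech, which inserts iron into heme, fell by 1.36 at day 1 and was at 0.08 and 0.80 later.

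Tfrc and Cpox were higher at day 7 alone. Tfrc encodes the transferrin receptor (probe A_65_P06446). At day 3 its level was -0.31, 0.36, -0.16, 0.43 and 0.36 in the controls and -1.42, -0.53, -0.47, -0.96 and 0.70 in the irradiated mice. At day 7 it ran from -1.27 to -0.20 (median -0.66) in the controls and was 1.60, 1.83, 0.83, 0.90 and 1.13 in the irradiated mice. The groups overlapped at day 3 and were separate at day 7. The effect was 1.94 ± 0.30 at day 7 (adjusted p = 0.000153) and rose by 2.61 ± 0.44 from day 3 (adjusted p = 0.00419). In the mice of day 7 with a hepatocyte level below 0 the Tfrc effect was 2.12. A dimmer Tfrc probe gave -0.80, 0.38 and 1.56 on the 3 days. Cpox, an enzyme of the heme pathway, was at 0.12 and 0.18 at days 1 and 3 and was higher by 1.80 ± 0.24 at day 7 (adjusted p = 3.52e-05), a rise of 1.62 ± 0.35 from day 3 (adjusted p = 0.00655).

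Genes of reticulocyte clearance went from lower to higher with the membrane genes. Of 10 tested, 5 were lower at day 1, none was called at day 3 and 4 were higher at day 7, with medians of -1.35, 0.68 and 1.22, and the effect rose for 7 from day 1 to day 7. In the spike-in scale 4 were lower at day 1, none was higher at day 7 and 4 rose. Ubac1 and Wdr26 among the 10 also belong to a list, described below, picked for opposite expression at days 1 and 7 on these mice. Cul4a, a scaffold of ubiquitin ligases, fell by 2.24 at day 1, was at 0.91 at day 3 and was higher by 1.5 at day 7. Ube2o, a ubiquitin-conjugating enzyme that clears ribosomal proteins in reticulocytes, went from -2.09 to 0.28 to 1.67, of which the first and the last were called. Among 12 erythroid regulators 3 were lower at day 1, 2 higher at day 3 and 2 higher at day 7. The day 3 count was 1 without control mice 2, 3 or 4 or irradiated mouse 2 of that day, and the day 7 count was 1 without irradiated mice 1 or 4 and 4 without irradiated mouse 1 of day 3. Klf1, a transcription factor of red cell development, was at -0.31 at day 1 and was higher by 1.05 at day 7, whereas Gata1, the erythroid GATA factor, was at 0.78, 0.94 and 0.30 and was not called on any day.

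E2f2, a cell cycle transcription factor, turned from lower (day 1) to higher (day 7). Its level was 5.56 to 6.50 in the controls and 3.84 to 5.20 in the irradiated mice of day 1. At day 7 it was 5.56 to 6.26 in the controls and 7.04 to 8.10 in the irradiated mice. The groups did not overlap on these days. The fold change was -1.74 ± 0.37, 0.04 ± 0.39 and 1.40 ± 0.37 on the 3 days, and it rose by 3.14 ± 0.52 from day 1 to day 7 (adjusted p = 7.46e-05). The day 7 call was lost under the date block (adjusted p = 0.0401). E2f2 belongs to the list of the next paragraph, picked for opposite expression at days 1 and 7 on these and other mice of the series. At day 3 the irradiated mice ran from 3.68 to 6.94, on both sides of the controls at 5.25 to 5.98. Tfdp2, a partner of E2f proteins, was lower by 1.74 at day 1, and Rb1, which holds E2f proteins in check, was higher by 0.88 at day 7 but at -0.046 in the spike-in scale. E2f1, E2f3, E2f4 and E2f8 were detected but were not tested, since they did not pass the filter on variation.

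A list of 14 genes, most of them regulators of the cell cycle, chromatin or ubiquitin transfer, had been picked by the authors for opposite expression at days 1 and 7. The choice used these mice together with mice given a higher x-ray dose or neutrons, so the direction on those days is not independent evidence. For Ube2c, Fzr1, Ccna2, Cdc25b and Nusap1 the authors also report the reversal by quantitative RT-PCR. Of the 14, 12 were called lower at day 1, and 11 were called higher at day 7. The day 3 mice were not part of that choice. None of the 14 was called at day 3, where their median was 0.56, between -1.45 at day 1 and 1.49 at day 7. From day 1 to day 3 the effect rose for 9 of them, among them Slc25a51 (2.96 ± 0.46) and Bsdc1 (2.10 ± 0.43), and from day 3 to day 7 for Anp32e (1.73 ± 0.46) and Eif5 (1.44 ± 0.38), changes that also use the values on which the list was picked. The changes of Anp32e and Eif5 from day 3 to day 7 were not called under the date block (adjusted p = 0.0613 and 0.0618), and neither was called in the mice with a hepatocyte level below 0. Without irradiated mouse 1 of day 3, 3 of the 14 were called higher at day 3 and 14 rose from day 1 to day 3. In irradiated mouse 1 of day 3 several of these genes stayed low: Ube2c stood at 4.06 there and at 5.85, 6.38, 5.60 and 6.52 in the other irradiated mice, with controls at 4.16 to 5.51.

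Mitosis genes did not change together. Of 25 tested, 4 were lower and 1 higher at day 1, none was called at day 3 and 6 were higher at day 7, and the medians were 0.45, 0.43 and 0.44, or 0.23, 0.17 and 0.39 over the 37 detected genes. The 4 genes lower at day 1 were Ube2c (-1.63), Ccna2 (cyclin A2, -1.53), Cdc25b (a phosphatase that starts mitosis, -1.68) and Nusap1 (a spindle protein, -2.55). The effect rose for these same 4 by day 3 and by day 7. All 4 belong to the list above that was picked for opposite expression at days 1 and 7 on these and other mice of the series. Their direction on those days is therefore not independent evidence. Cdk1, the kinase that drives mitosis, was the gene that was higher at day 1, by 1.83, and was at -0.15 and 0.38 later. It lost this call under the date block (adjusted p = 0.0233). The count of 1 was 0 when control mouse 1, 2, 3 or 5 or irradiated mouse 2, 4 or 6 of day 1 was left out, and 4 without irradiated mouse 5 of day 7. Among 11 DNA replication genes, Lig1 (DNA ligase 1) was lower at day 1 by 1.47 and Dut (dUTPase) higher at day 3 by 1.34. Lig1 was not called under the date block. A dimmer Dut probe gave -0.23, 0.23 and -0.49 on the 3 days. In the spike-in scale 3 mitosis genes were lower at day 1 and none was higher at day 7.

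Targets of p53 were called higher at days 1 and 3, and none was called at day 7. Of 35 genes of this list, 31 were detected and 14 tested. At day 1, 7 of the 14 were higher, at day 3, 7, and at day 7, none, with medians of 1.02, 0.69 and 0.18. The median over the 31 detected genes was 0.58, 0.36 and -0.02, against -0.01, -0.02 and -0.04 over all 16305 detected genes. The effect fell by a called amount for 3 genes from day 1 to day 7 and for 1 from day 3 to day 7. Under the date block 7, 4 and 0 were higher, and in the spike-in scale 5, 0 and 0. The day 3 count was 4 without control mice 2 or 3 or irradiated mice 1 or 5 of that day. Psrc1, a p53-regulated spindle protein (probe A_55_P2429225), gave the smallest p at day 1, and was well above background on 3 of 5 control arrays of that day. At day 1 it stood at -4.04, -3.72, -4.17, -4.09 and -4.26 in the controls and between -1.92 and -1.28 (median -1.74) in the irradiated mice. At day 3 the controls were at -3.44, -3.94, -4.02, -3.58 and -3.07 and the irradiated mice at -1.92, -2.01, -2.58, -2.41 and -2.05. At day 7 the controls ran from -3.41 to -2.84 (median -2.93), and the irradiated mice were at -2.24, -2.74, -3.16, -2.46 and -2.16. The groups were separate at days 1 and 3 and overlapped at day 7. The fold change was 2.41 ± 0.21 (adjusted p = 8.94e-09), 1.42 ± 0.22 (adjusted p = 0.000299) and 0.48 ± 0.21 (adjusted p = 0.128), and it fell by 1.93 ± 0.29 from day 1 to day 7 (adjusted p = 2.27e-05). The control means rose over the same days, from -4.06 to -3.61 to -3.03, while the irradiated means went from -1.65 to -2.19 to -2.55.

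Other p53 targets differed in the days on which they were called. Cdkn1a, the p21 inhibitor of cyclin-dependent kinases, was higher by 3.10 ± 0.43 at day 1 and 1.78 ± 0.45 at day 3 and was at 0.97 ± 0.43 at day 7. At day 3 its groups overlapped, with controls from -3.73 to -1.34 and irradiated mice from -2.50 to 0.08, and under the date block it was not called there. Phlda3, an inhibitor of Akt signalling, was higher at day 1 (1.57 ± 0.26) and at day 3 (1.81 ± 0.28), with a difference of 0.24 ± 0.38 that was not called, and fell from day 3 to day 7 by 1.60 ± 0.38 (adjusted p = 0.0102). Its level at day 3 was 1.30, 0.61, 0.54, 0.76 and 0.81 in the controls and 3.16, 2.98, 1.70, 2.71 and 2.53 in the irradiated mice, with no overlap. Ccng1 (cyclin G1) went from 1.09 to 0.77 to -0.05 and Dglucy, an enzyme of D-glutamate breakdown, from 1.62 to 0.86 to 0.12, and both fell by a called amount from day 1 to day 7. Bbc3, the death protein Puma, was higher by 1.11 and 0.79 at days 1 and 3, and Bax by 0.96 at day 1. Zmat3, an RNA-binding protein, was called at day 3 alone, with 0.83 against 0.67 at day 1. Bbc3 (adjusted p = 0.0373) and Zmat3 (adjusted p = 0.0349) lost the day 3 call under the date block. No change of the effect between days was called for Cdkn1a, Bbc3, Bax or Zmat3.

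**Figure D4:**
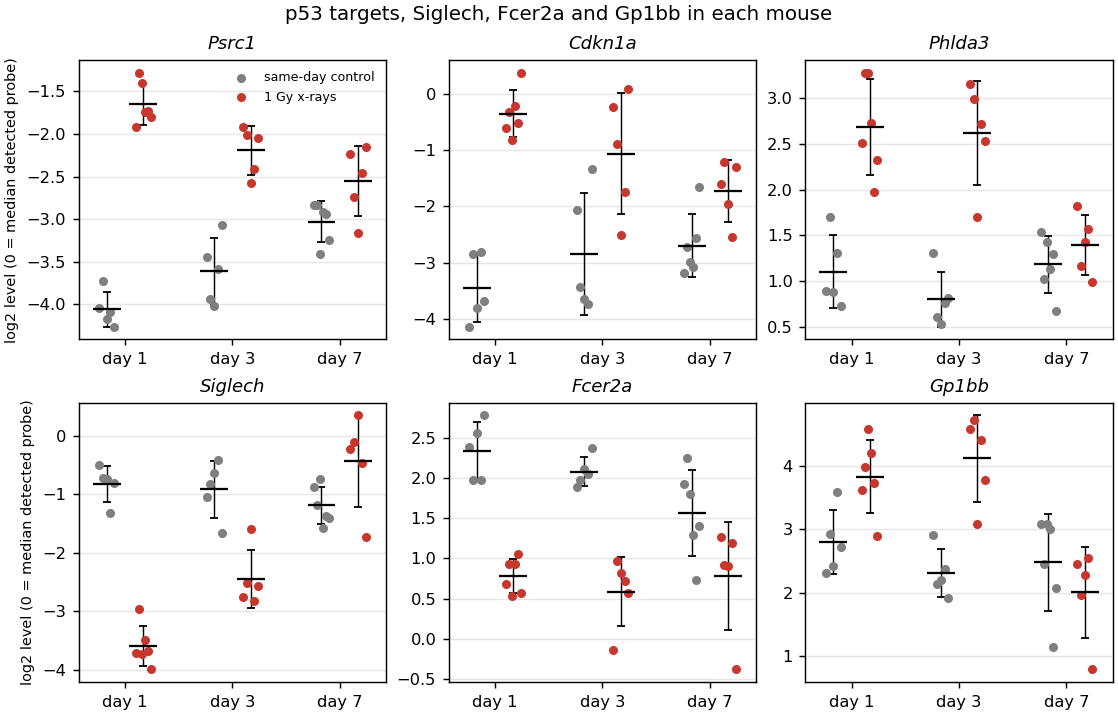
Log2 level relative to the array median for Psrc1, Cdkn1a, Phlda3, Siglech, Fcer2a and Gp1bb in each mouse, controls and irradiated mice side by side at days 1, 3 and 7, with the mean and SD of each group. The p53 targets are raised at days 1 and 3, Siglech and Fcer2a are lowered at days 1 and 3, and Gp1bb is raised at day 3.

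Many B cell genes were lower, and none was higher, on each of the 3 days. Of 17 tested, 10 were lower at day 1, 12 at day 3 and 6 at day 7, and the medians were -1.05, -1.02 and -0.79. Over the 20 detected genes the medians were -0.93, -1.01 and -0.74. No change of the effect between days was called for any of the 17. With the hepatocyte level as a covariate 8, 11 and 1 were lower, and under the date block 8, 6 and 2. In the spike-in scale 1, 16 and 14 were lower, where 116, 1346 and 2192 of all 16304 genes tested were. The day 3 count was 7 without control mouse 4 or irradiated mice 1 or 5 of that day. The day 7 count was 3 without control mice 1 or 5 or irradiated mouse 1, 2 without irradiated mouse 2 and 1 without irradiated mouse 5. Fcer2a, the low-affinity IgE receptor CD23 of B cells (probe A_55_P2117345), stood at 2.38, 1.97, 2.55, 1.97 and 2.78 in the controls of day 1 and at 0.53 to 1.05 (median 0.80) in the irradiated mice. At day 3 the controls were at 1.89, 1.98, 2.11, 2.04 and 2.37 and the irradiated mice at -0.14, 0.97, 0.82, 0.72 and 0.57. At day 7 the controls ran from 0.73 to 2.24 (median 1.60), and the irradiated mice were at 1.26, 0.92, 0.91, 1.20 and -0.37. The groups were separate at days 1 and 3 and overlapped at day 7. The fold changes were -1.55 ± 0.27, -1.49 ± 0.28 and -0.78 ± 0.27, of which the last was not called (adjusted p = 0.0541). Pax5, which holds B cell identity, fell by 1.22 and 1.33 at days 1 and 3 and was at 0.11 at day 7. Blnk, an adaptor of the B cell receptor, and the homing receptor Cxcr5 were lower on all 3 days, by 0.85, 0.84 and 1.05 for Blnk and by 1.06, 1.02 and 1.00 for Cxcr5. Under the date block, or with the hepatocyte covariate, Cxcr5 was not called on any day, and with the date block Blnk was not called at day 3 (adjusted p = 0.037).

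Genes of MHC class II, which present antigen on B cells and dendritic cells, were lower for 3, 3 and 2 of 10 genes on the 3 days, with medians of -0.83, -1.08 and -0.68. H2-Aa was called on each day, with -1.08 ± 0.22, -0.95 ± 0.23 and -0.84 ± 0.22, and it was not called at day 7 with the hepatocyte covariate, nor at day 3 (adjusted p = 0.0348) or day 7 (adjusted p = 0.0461) under the date block. The day 1 count of 3 was 1 when control mouse 1, 2, 3 or 5 or irradiated mouse 1, 3 or 4 of that day was left out, and 7 without irradiated mouse 1 of day 3. The day 7 count of 2 was 1 when control mouse 1, 2, 3 or 6 or irradiated mouse 2 was left out, 0 without irradiated mouse 5 and 4 without irradiated mouse 1 of day 3. None of the 11 T cell genes tested was called in any comparison, and their medians were 0.21, -0.09 and -0.04.

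Siglech, a surface lectin of plasmacytoid dendritic cells, was lower at days 1 and 3 and not at day 7. Its probe (A_55_P2165790) stood at -0.50, -0.73, -0.75, -1.33 and -0.81 in the controls of day 1 and between -3.99 and -2.96 (median -3.69) in the irradiated mice. At day 3 the controls were at -1.05, -0.83, -0.64, -0.42 and -1.67 and the irradiated mice at -2.76, -2.52, -1.60, -2.82 and -2.57. At day 7 the controls ran from -1.58 to -0.74 (median -1.28), and the irradiated mice were at -0.24, -0.11, 0.34, -0.47 and -1.74. The separation of day 1 was complete, 1 irradiated mouse reached the controls at day 3, and at day 7, 4 of the 5 irradiated mice lay above all controls. The fold change was -2.77 ± 0.29, -1.54 ± 0.31 and 0.75 ± 0.29, and it rose by 2.29 ± 0.42 from day 3 to day 7 (adjusted p = 0.00435). A second, brighter Siglech probe (A_55_P2141013) gave -0.04, -0.10 and 0.19, so the result belongs to 1 of 2 probes. Of the 5 genes of this list, 2 were lower at day 1 and 2 at day 3, the other being the kallikrein Klk1. Pacsin1 was at 0.70, 0.08 and -0.50, and Ccr9 at -0.05, -0.35 and 0.15. Neither these nor Cox6a2 were called on any day. The list medians were -1.51, -1.15 and -0.27. With the brightest detected probe of each gene they were -0.05, -0.35 and -0.27, so the list as a whole gives no clear fall.

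Natural killer and cytotoxic genes were called higher at day 1 and not later. Of 8 tested, 4 were higher at day 1 and none at day 3 or 7, with medians of 1.01, 0.38 and -0.13, and the fall of the effect from day 1 to day 7 was called for 2, Gzmb and Gzma. Over the 14 detected genes the medians were 0.87, 0.27 and -0.18. Under the date block 2 were higher, and in the spike-in scale 1. The count was 2 without control mice 1, 2 or 4 or irradiated mice 2 or 3 of day 1. Gzmb (granzyme B) stood at 1.19, 1.33, 1.51, 1.43 and 1.52 in the controls of day 1 and at 2.11 to 3.45 (median 2.92) in the irradiated mice, without overlap. Its fold change was 1.5 ± 0.27 at day 1 and 0.28 and -0.07 later, and it fell by 1.57 ± 0.38 from day 1 to day 7 (adjusted p = 0.00417). Gzma (granzyme A) was higher by 1.19, though not called under the date block, and Il2rb, a subunit of the receptors for interleukins 2 and 15, was higher by 1.19 at day 1.

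Interferon-stimulated genes moved in both directions. Of 19 tested, 3 were higher and 2 lower at day 1, and none was called at day 3 or 7. The 3 became 7 without control mouse 4 of day 1 and 5 without irradiated mouse 1 of day 3 or mouse 5 of day 7. The 2 became 1 without control mice 4 or 5 or irradiated mice 1, 4, 5 or 6 of day 1, without control mouse 3 or irradiated mouse 4 of day 3, and without control mice 2 or 3 or irradiated mouse 1 of day 7. Ifit3, an antiviral RNA sensor partner, was at 0.40, 0.98, 0.62, 1.57 and 0.20 in the controls of day 1 and at 1.78 to 3.10 in the irradiated mice, and its effect fell from 1.60 ± 0.31 to -0.46 ± 0.33 at day 3 (change -2.06 ± 0.45, adjusted p = 0.00472). Rsad2 (viperin) went the other way, from -1.94 ± 0.34 at day 1 to 0.81 ± 0.36 at day 3 (change 2.75 ± 0.50, adjusted p = 0.00066), with day 1 levels of 6.58 to 7.68 in the controls and 4.39 to 6.32 in the irradiated mice. From day 1 to day 7 the effect rose for Rsad2, Oas3 and Isg15 and fell for Ifit3, Mx1 and Rtp4, of which Mx1 and Rtp4 were not called under the date block.

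Some platelet genes were higher at day 3. Of 16 tested, none was called at day 1, 4 were higher at day 3 and none was called at day 7, with medians of 0.91, 1.34 and -0.16. No change of the effect from day 1 to day 3 was called for any of the 16 (median change 0.47), so a rise between these days was not shown. Under the date block 2 were higher at day 3, with the hepatocyte covariate 6, and in the spike-in scale none. The count was 2 without control mice 2 or 3 or irradiated mice 2 or 4 of that day, 10 without irradiated mouse 3 and 7 without control mouse 5 of day 7. Gp1bb, a subunit of the von Willebrand factor receptor (probe A_51_P151576), stood at 2.91, 2.14, 2.19, 2.38 and 1.91 in the controls of day 3 and at 4.58, 4.73, 3.09, 4.42 and 3.78 in the irradiated mice. At day 7 it ran from 1.15 to 3.09 (median 2.73) in the controls and was 2.44, 1.96, 2.28, 2.55 and 0.79 in the irradiated mice. The separation of day 3 was gone at day 7. The effect was 1.81 ± 0.39 at day 3 (adjusted p = 0.00438) and fell by 2.28 ± 0.54 to day 7 (adjusted p = 0.00968). Itgb3, the beta subunit of the fibrinogen receptor, was higher by 1.66 at day 3 and also fell, a change that was not called under the date block. Other genes that were highest at day 3 were the muscle and cytoskeleton genes Tpm2 (2.31 ± 0.46) and Cnn1 (2.14 ± 0.44). So were the matrix protein gene Thbs1 (2.17 ± 0.38) and F13a1 (2.05 ± 0.35), which encodes the A subunit of clotting factor XIII. At day 1 Tpm2, Cnn1, Thbs1 and F13a1 were at 0.76, 1.41, 0.96 and 0.32.

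Few myeloid genes were called. The medians were 0.55, 0.85 and 0.20 over 12 mature neutrophil genes, -0.73, 0.67 and 0.23 over 11 monocyte genes and -0.04, 0.56 and 0.07 over 9 neutrophil granule genes. Of the 12 mature neutrophil genes, Trem1, an amplifier of inflammatory signals, was higher at day 3 (2.09 ± 0.53), where irradiated mouse 1 stood at 4.78 and the others at 1.01, 1.38, 1.63 and 0.19. The neutrophil granule gene Chil3 was lower at day 1 by 1.82, and its effect rose by 3.43 ± 0.66 to day 3. Of the monocyte genes, Ace and Nr4a1 were lower at day 1, by 1.21 and 1.07, and F13a1, which monocytes and platelets share, was higher at day 3. Under the date block Trem1 (adjusted p = 0.0411), the day 1 call of Chil3 (adjusted p = 0.0288) and Nr4a1 (adjusted p = 0.0266) were lost.

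**Figure D5:**
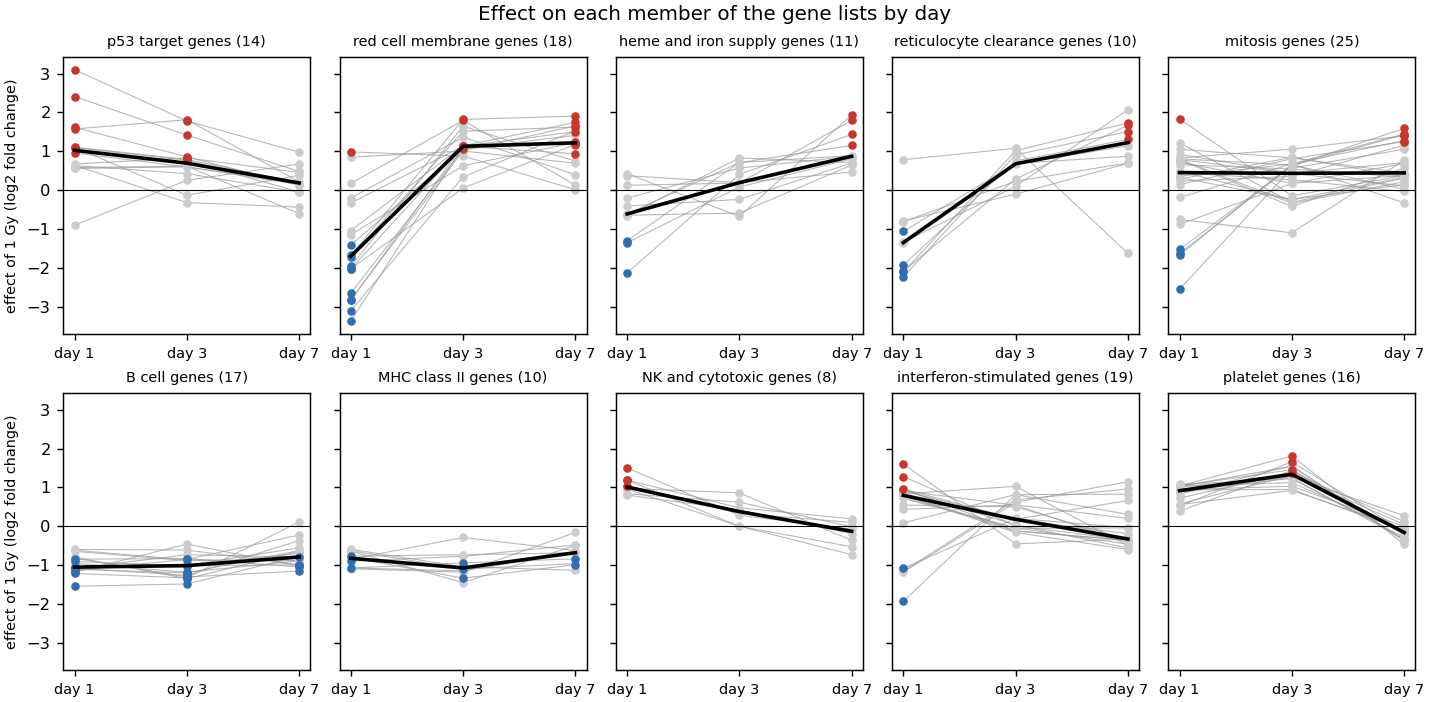
Log2 fold change of each tested member of 10 gene lists at days 1, 3 and 7, 1 line per gene, with points in red where the gene was called higher, blue where it was called lower and grey otherwise, and the list median in black. The red cell membrane median goes from -1.71 to 1.13 to 1.22, the B cell median stays at -1.05, -1.02 and -0.79, and the p53 target median goes from 1.02 to 0.69 to 0.18.

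Apol10a, of the apolipoprotein L family, was among the largest single changes. It stood at -2.02, -1.68, -1.71, 0.25 and -0.32 in the controls and -4.42 to -2.83 in the irradiated mice of day 1. At day 3 it was at -0.88, -1.59, -2.06, -1.18 and -1.29 in the controls and 0.38, 1.22, 0.57, 1.39 and 1.94 in the irradiated mice. The groups were separate on all 3 days. The fold change was -2.44 ± 0.37, 2.50 ± 0.38 and 2.23 ± 0.37, and the rise from day 1 to day 3 of 4.95 ± 0.53 (adjusted p = 1.57e-06) was called. Apol10b, a close relative, was higher at day 7 by 2.54 ± 0.38 in a fit with 1 array missing, and cross-hybridisation between relatives was not tested. Klk1, Klk1b5 and Klk1b26, closely related tissue kallikreins whose probes may share signal, were lower at days 1 and 3, with measured values of -2.39 and -2.92 for Klk1, and were not called at day 7 (-0.27, -0.63 and -0.81). Klk1 was well above background on all control arrays but on 4 of 6 irradiated arrays of day 1 and 1 of 5 of day 3, so the size of these changes rests on signals near background. Usp2, a deubiquitinase, was higher at day 1 alone (2.63 ± 0.52).

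Some of the largest values of day 7 came from genes with a wide spread between mice. Gm5106 was higher by 5.05 ± 1.37 and Wsb2, a ubiquitin ligase adaptor, by 4.35 ± 1.17. Neither was called under the date block (adjusted p = 0.0507 and 0.0484), with the hepatocyte covariate or in the mice with a hepatocyte level below 0, and a second Wsb2 probe gave -0.82. Gm5106 ran from -2.02 to 0.18 in the controls of day 7 and from 1.58 to 6.34 in the irradiated mice, but it was as high as 5.94 in the controls of day 1 and 6.34 in those of day 3. Adora2a, the adenosine A2a receptor, was lower at day 7 by 2.60 ± 0.51 and was at 0.95 and 0.28 before, with 2 of the 5 irradiated mice of day 3 missing. Its levels at day 7 were -0.86 to 1.99 in the controls and -2.66 to -1.42 in the irradiated mice, without overlap.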

How the data were processed

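Whole blood RNA of single mice was hybridised to 1-colour Agilent 4x44K v2 mouse arrays, and the authors deposited per-array Agilent Feature Extraction text files whose processed signal is an intensity, background-subtracted by that software. Of the 72 arrays, 32 were used, grouped by title. The members and gene lists were chosen with earlier results of these data known. List genes were named by the size of their change and, beyond that, after their values were seen. The deposited log2 value table of the series was not used.

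From the intensity, log2 values of the 39429 probes were computed here, with the mean taken over spots of a probe and the median over the detected probes of the array subtracted. Probes dim or non-uniform on 25% or more of the arrays were left out, as were those departing less than 1.5-fold from their median on over 80% of the arrays. The brightest probe stood for a gene, and 28330 probes were named through RefSeq accessions. This left 7546 genes. Day effects and their differences were fitted in limma 3.58.1 (R 4.3.3) over the 6 groups, with Benjamini-Hochberg adjustment. The fits were tested on simulated data. No label says whether mice shared a cage, and the number of mice limits the precision. Other centring, background, filters, probes, blocks and left-out mice were tried. Results on a few genes are not reported here. Sequences are from RefSeq, and the array files name no genome build.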

Additional observations from a re-analysis of the deposited data

Results flagged for a closer look

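Levels of genes and lists were examined by Dixon's test in groups of 5 or 6 mice, with at least 4 values each. In 23 of 348 groups a mouse lay far from the others, where chance gives about 1 in 20 groups. Irradiated mouse 5 of day 7 was the distant one in 8 of them. Its Fcer2a level was -0.37 and its F13a1 level 2.78, and its mean levels were 1.52 for B cell genes, 2.76 for MHC class II genes, 0.26 for neutrophil granule genes, 1.72 for monocyte genes, 2.04 for mitosis genes and -0.3 for DNA repair genes. Control mouse 1 of day 3 was distant in 4, with 7.98 for Slc25a37 and means of 2.42 for neutrophil granule genes, 2.78 for mature neutrophil genes and 1.26 for interferon-stimulated genes. The other single genes were E2f2 at 5.56 in control mouse 6 of day 7, Pax5 at -1.54 in control mouse 5 and -4.67 in irradiated mouse 1 of day 3, Siglech at -1.6 and Klk1 at -2.62 in irradiated mouse 3 of day 3, Klk1 at -1.14 in control mouse 3 of day 1, and Usp2 at -1.99 in irradiated mouse 1 of day 3. The other lists were the B cell genes at 2.48 in control mouse 4 of day 1, the E2f family and pocket proteins at 2.24 in control mouse 6 of day 7, and the interferon-stimulated genes at 1.89 in irradiated mouse 2 of day 1 and at 1.85 in control mouse 4 of day 7.

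By limma's F test with Benjamini-Hochberg adjustment over all genes tested, the effect differed among the 3 days for 25 of the 32 genes shown in full. Most were chosen for the size of their change, so this count is a description, and over all genes tested the share was 9.51%. Among red cell and iron genes the adjusted p was 4.95e-07 for Ank1, Ahsp and Slc25a37, 1.49e-06 for Slc4a1, 2.36e-06 for Rhd, 0.000922 for Cpox and 0.000347 for Tfrc. It was 4.95e-07 for Cul4a, 0.000193 for Ube2c, 5.3e-06 for Nusap1 and 0.000307 for E2f2. Among p53 targets it was 9.46e-05 for Psrc1, 0.00539 for Phlda3, 0.00337 for Ccng1 and 0.000103 for Dglucy. Among immune genes it was 2.36e-06 for Siglech, 0.00138 for Klk1, 0.00801 for Gzmb, 0.0017 for Ifit3 and 0.000115 for Rsad2. For Tpm2 it was 0.0105, for Gp1bb 0.00797, for F13a1 0.00647 and for Apol10a 4.59e-07. Cdkn1a was not among the 25.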

How the results depend on the processing

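The counts of genes called at days 1, 3 and 7 and for the changes from day 1 to 3, day 3 to 7 and day 1 to 7 were 630, 501, 470, 279, 388 and 666, and 718 for any change of the effect among the 3 days. Spike-in centring gave 194, 1349, 2195, 30, 72 and 1092, among 16304 genes tested. Background correction by normexp gave 56, 156, 140, 65, 48 and 243, and 235 for any change. Without the 1.5-fold filter there were 950 at day 1 and 836 at day 7, among 16305 tested. Without the detection filter there were 124 from day 1 to 3 and 614 from day 3 to 7, among 22951 tested. A fit of only the groups compared gave 42 at day 3, 290 at day 7 and 206 from day 3 to 7, and a random variance test gave 42 and 292 at these days. The scan date as a random block gave 400, 214, 277, 183 and 167 for the first 5, and 415 for any change. The slide gave 257 at day 3 and 205 from day 3 to 7. In mice with a hepatocyte level below 0, an alternative chosen after seeing the data, there were 0 at day 3 and 1 from day 3 to 7. The cause was not tested. The counts not given here were within 1.5 times. Leaving out 1 mouse gave 406 to 820, 272 to 705, 311 to 642, 218 to 359, 253 to 570 and 534 to 854, and 523 to 877 for any change.

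Of 244 results on single genes, 191 kept their call with the scan date and 53 did not, 231 and 13 with the hepatocyte covariate, 118 and 119 with normexp, and 108 and 132 with spike-in centring. Of the results that the mice with a hepatocyte level below 0 could give, 27 kept their call and 69 did not. The direction of Msl1 from day 3 to 7 turned with spike-in centring (0.101) and without the 1.5-fold filter (0.265). With spike-in centring Siglech turned at day 1 (0.126) and from day 1 to 7 (-0.87), where its brighter probe was used, and Rb1 at day 7 (-0.046). Whether the numbers of the mice pair them was not settled. Of 15 same-numbered pairs, with correlations from -0.502 to 0.603, 7 were over 0.1. In 7 of the 15 the same-numbered irradiated mouse was the closest match to the control. A replicate block gave 774, 742, 413, 269, 552, 724 and, for any change of the effect among the 3 days, 801 calls.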

Other observations

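Lists with few or no calls gave the following values. Of 17 hepatocyte genes tested none was called on any day, with medians of 2.20, 1.83 and 2.57, values that go with the wide range of their level within groups. Saa3, an acute-phase protein gene, was higher at day 1 by 4.38 ± 1.02, with controls at -1.40, 1.39, -1.41, -0.63 and -0.31 and irradiated mice from 0.25 to 7.35, so that the groups overlapped. Of 6 DNA repair genes tested, Xrcc4, a factor of DNA end joining, was called lower at day 7 (-1.92). None of 14 fatty acid oxidation genes and 9 immediate-early genes was called, nor was the 1 heat shock gene tested, Hspb1.

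Among 44 named genes with several detected probes, the probes of 15 differed by over 1 log2 unit in an effect, and these were Anp32e, Cacna1i, Dclre1c, Dut, Klrb1b, Msl1, Mta3, Pmp22, Rfc4, Siglech, Slc4a7, Spint2, Tfrc, Wdr26 and Wsb2.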
